A study of Mus musculus with 12 samples.

Results

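Guanylate-binding proteins (Gbp genes) and immunity-related GTPases (Irg genes, with Igtp and Tgtp1 among them) are the large and the small branch of the interferon-inducible GTPases. Of the 57186 gene identifiers in the count table, 10 were taken by their symbols, namely Gbp2, Gbp3, Gbp4, Gbp5, Gbp7, Gbp9, Irgm1, Irgm2, Igtp and Tgtp1. All 10 passed the filter on low counts. The series sequenced polyadenylated RNA of 12 tumours grown in mice from 4T1, a line of mouse mammary carcinoma that stands for triple-negative disease. In 6 tumours (Tn) Cosmc had been silenced in the 4T1 cells with CRISPR/Cas9. This gene, C1galt1c1, is needed to extend O-linked glycans beyond the Tn antigen. In the other 6 tumours (WT) the cells were parental. The labels call the tumours of a group biological replicates, place all of them in the breast and in 1 batch, and give neither the age and strain of the mice, the clone of the silenced cells nor the size of a tumour. Whole tumour tissue was sequenced, so each level sums carcinoma cells and cells of the host, and fewer cells of a type and less RNA per cell cannot be told apart.

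In mouse cells these GTPases are switched on mainly by interferon gamma, through its receptor, the Jak kinases and a short palindrome in promoters called GAS, and through the interferon regulatory factors, which bind the repeat called ISRE. The proteins gather on the membranes of vacuoles that hold parasites or bacteria, break them open and expose their contents to inflammasomes. The Irg proteins divide into the regulators Irgm1, Irgm2 and Igtp (also called Irgm3), which guard the cell's own membranes, and the effectors, such as Tgtp1 (also called Irgb6), which attack the vacuole.

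The labels were checked with Cosmc itself. C1galt1c1 averaged 11.3 ± 0.775 CPM in Tn tumours and 19.6 ± 3.05 CPM in WT tumours (SD, n = 6 each), where CPM are counts scaled to the TMM-adjusted library size, and it fell by 0.80 on the log2 scale (edgeR quasi-likelihood test, adjusted p = 0.000201). The libraries held 113575859 to 156880766 counts. These totals exceed the number of reads a sample that the design text names, by more than counting both reads of a pair would add, and the cause was not tested. WT tumour 6 stood apart in the GTPase genes and in markers of other tissues. Its summed adipocyte markers, at 2194 CPM, were the highest of the 12 tumours, and its keratinocyte markers, at 828 CPM, the highest of the WT tumours. The results of the members are therefore also given without it, as are those of other genes and lists where stated.

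The promoters of the genes were searched for the letters of both motifs. The RefSeq table used here (build GRCm38.p6) held 8 of the 10 members, without Gbp4 and Gbp9, and each window was found letter for letter in GRCm39, whose coordinates are given. The 250 bases before each start were searched on both strands for GAS (TTCNNNGAA) and for an ISRE core (GAAA, any 2 bases and GAAA, which reads TTTC, any 2 bases and TTTC on the other strand). The ISRE core letters were found before all 8 genes, in 1 of the 2 windows of Gbp3, against 3.46% of the 27025 genes of the table. GAS letters stood before Gbp5, Gbp7, Igtp, Irgm2 and Tgtp1, against 8.13% of all genes. Both motifs together were found in 0.332% of all 32851 windows. The starts are those of RefSeq. The windows of Gbp5, Irgm1, Irgm2 and Tgtp1 lie inside the genes as counted, which begin further upstream in the deposited annotation. Of the stretches printed below, 27 bases of Gbp2 and all 30 of Irgm1 lie in the gene's own counted exons. The same holds for 4 bases of Gbp3 and 6 of the Gbp5 GAS stretch. A match of letters is a description of the sequence and not a measured binding site.

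The Gbp stretches are shown because Gbp3 and Gbp5, which passed the test with all tumours, can be read beside Gbp2, which did not. Gbp7, which is not printed, also did not pass and holds both motifs, as Gbp5 does, while Gbp3 holds no GAS. The printed stretches are on the plus strand, 5′ to 3′, with the motif letters in capitals. The Gbp2 stretch lies at chr3:142326350-142326389. The Gbp3 stretch, whose capitals hold 2 overlapping ISRE cores, lies at chr3:142265745-142265790. The 2 stretches shown for Gbp5 lie at chr3:142202515-142202554 (ISRE core) and chr3:142202628-142202666 (GAS).
Gbp2: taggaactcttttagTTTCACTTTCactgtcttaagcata
Gbp3: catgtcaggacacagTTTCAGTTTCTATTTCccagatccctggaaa
Gbp5, ISRE core: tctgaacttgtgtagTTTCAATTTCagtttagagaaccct
Gbp5, GAS: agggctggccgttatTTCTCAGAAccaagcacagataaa

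The Irg stretches are shown because Igtp, Irgm2, Tgtp1 and its close copy Tgtp2 share a module of GAS and ISRE core placed 2 bases apart, while Irgm1 has 2 overlapping ISRE cores and no GAS. Gm12185, another gene of the family that is not printed, also holds this module. Igtp (chr11:58090322-58090372) and Irgm2 (chr11:58105713-58105763) are on the plus strand. Tgtp1 (chr11:48883126-48883176), Tgtp2 (chr11:48955085-48955135) and Irgm1 (chr11:48762255-48762284) are read from the minus strand. In the first 4, the first capitals are GAS and the second the ISRE core.
Igtp: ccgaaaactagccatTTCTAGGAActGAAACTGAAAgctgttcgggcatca
Irgm2: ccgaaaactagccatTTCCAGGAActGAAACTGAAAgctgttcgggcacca
Tgtp1: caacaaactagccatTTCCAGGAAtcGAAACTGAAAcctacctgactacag
Tgtp2: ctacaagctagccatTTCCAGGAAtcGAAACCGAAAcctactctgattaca
Irgm1: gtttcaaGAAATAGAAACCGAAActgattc

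**Figure D1:**
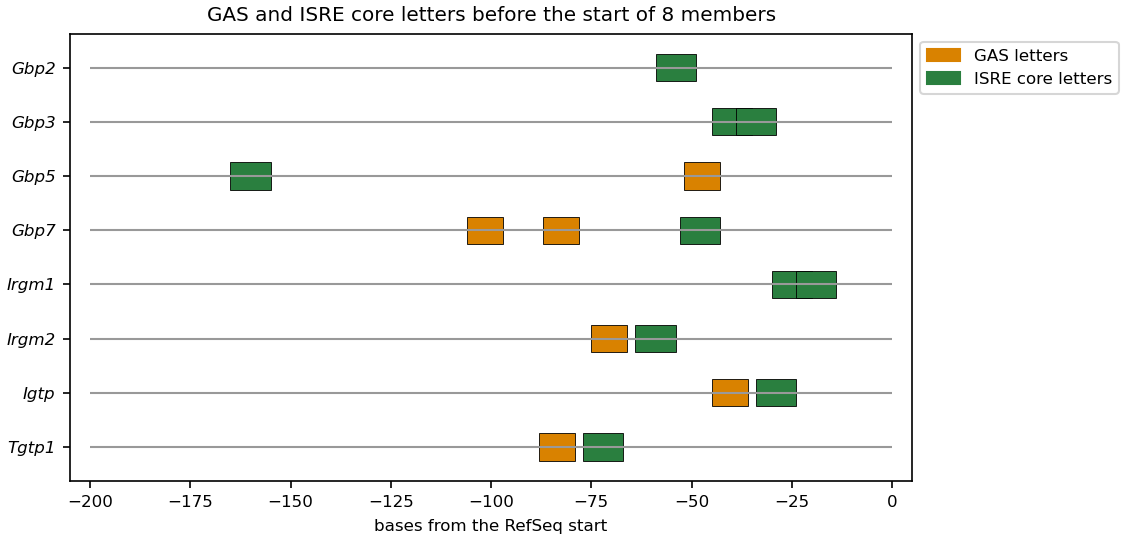
GAS and ISRE core letters in the 200 bases before the RefSeq start of 8 members. The horizontal axis is the distance from the start in bases, and each box is 1 match; every row holds an ISRE core, and 5 rows also hold GAS.

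Of the 10 members, 9 had a positive log2 fold change, with a median of 0.87 over the members against 0.01 over all genes tested. By edgeR's quasi-likelihood test, with p-values adjusted over 19255 genes (Benjamini-Hochberg) and a threshold of 0.05, 2 rose, Gbp3 and Gbp5, and 0 fell, while 19.5% of all genes rose and 17.4% fell. In 2 members, Gbp5 and Irgm2, all 6 Tn tumours lay above all 6 WT tumours, against 8.81% of all genes, and in 0 members did all Tn tumours lie below all WT tumours, against 8.35%. The share of members that rose is thus at the background. Without WT tumour 6, 5 rose, namely Gbp3, Gbp5, Irgm1, Irgm2 and Igtp, 0 fell, and the background was 17.9% higher and 15.5% lower.

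**Figure D2:**
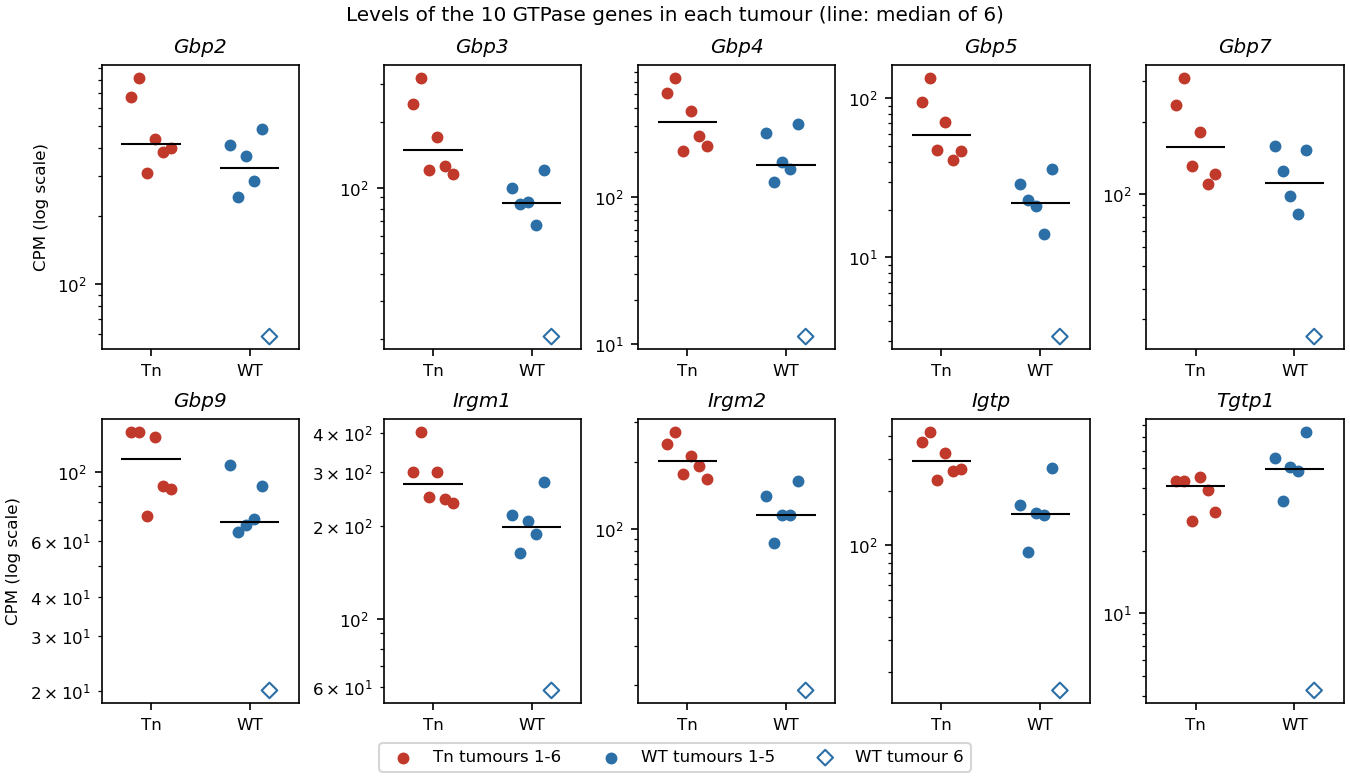
Levels of the 10 members in each tumour, in TMM-scaled CPM on a log axis, with Tn tumours left and WT tumours right and the median of each group of 6 as a line. WT tumour 6, drawn as an open diamond, is the lowest of all 12 tumours in each panel, and in Gbp5 and Irgm2 the groups do not overlap.

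Gbp5, whose protein is known for promoting the Nlrp3 inflammasome (ENSMUSG00000105504, GRCm39 chromosome 3, 142199739 to 142228105), showed the largest difference of the 10. The 6 Tn tumours held 94.5, 134, 47.4, 70.8, 40.9 and 46.5 CPM, and the 6 WT tumours held 28.8, 22.9, 21.2, 14, 36 and 3.18 CPM. Every Tn tumour exceeded every WT tumour, with Tn tumours 1 and 2 on top and WT tumour 6 far below the rest. The means were 72.4 ± 36.3 CPM in Tn tumours and 21 ± 11.5 CPM in WT tumours (SD, n = 6 each), a 3.44-fold difference or 1.78 ± 0.48 on the log2 scale (SE; edgeR adjusted p = 0.0118). Without WT tumour 6 it was 1.56 ± 0.34 (edgeR adjusted p = 0.00535). Its window before the RefSeq start, in the stretches printed above, carries an ISRE core and a GAS match.

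Gbp3 (ENSMUSG00000028268, chromosome 3, 142265787 to 142278970) lies in the same cluster. The Tn tumours held 242, 320, 120, 172, 126 and 116 CPM, and the WT tumours held 99.3, 84.3, 85.5, 66.8, 121 and 20.5 CPM. The groups overlapped by 1 WT tumour, number 5, which lay above the 2 lowest Tn tumours. The log2 fold change was 1.20 ± 0.38 (edgeR adjusted p = 0.0256), and 1.00 ± 0.28 without WT tumour 6 (edgeR adjusted p = 0.0171). The call rested on single tumours: without Tn tumour 1, Tn tumour 2 or WT tumour 4 the edgeR adjusted p was 0.0539, 0.0588 and 0.053, and the values were 1.11, 0.98 and 1.16. With no filter on low counts it was 0.0709.

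The other members of the chromosome 3 cluster did not pass. Gbp2, a prenylated protein that is loaded onto pathogen vacuoles (ENSMUSG00000028270), held a lowest, median and highest level of 308, 417 and 811 CPM in Tn tumours, against 58.7, 327 and 486 CPM in WT tumours. Its groups overlapped, and Tn tumours 1 and 2 alone lay above every WT tumour. It differed by a log2 fold change of 0.70 ± 0.40 (edgeR adjusted p = 0.191), or 0.48 ± 0.26 without WT tumour 6 (edgeR adjusted p = 0.176). Gbp7 (ENSMUSG00000040253), which in mouse macrophages is linked to assembly of the NADPH oxidase, held 110, 157 and 307 CPM in Tn tumours and 25.2, 111 and 159 CPM in WT tumours. Tn tumours 1, 2 and 4 were above every WT tumour and the other 3 were not, with a log2 fold change of 0.76 ± 0.39 (edgeR adjusted p = 0.141). Without WT tumour 6 it was 0.56 ± 0.28 (edgeR adjusted p = 0.146).

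The 2 members of the chromosome 5 cluster also did not pass. Gbp4 (ENSMUSG00000079363) held 206, 320 and 637 CPM as lowest, median and highest in Tn tumours, against 11.3, 164 and 311 CPM in WT tumours. The WT range was the widest of all members, since WT tumour 6 was 27.5-fold below the highest WT tumour. The log2 fold change of Gbp4 was 1.08 ± 0.56 (edgeR adjusted p = 0.147), and 0.83 ± 0.34 without WT tumour 6 (edgeR adjusted p = 0.0769). Gbp9 (ENSMUSG00000029298) held 72.5, 110 and 134 CPM in Tn tumours and 20.1, 69.3 and 105 CPM in WT tumours. Tn tumours 1, 2 and 4 were above every WT tumour. Gbp9 had a log2 fold change of 0.63 ± 0.31 (edgeR adjusted p = 0.127), and 0.44 ± 0.19 without WT tumour 6 (edgeR adjusted p = 0.093). An exon at the start of Gbp4, Gbp8 and Gbp9 overlaps in the deposited annotation, over at most 61 bases a gene.

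Among the Irg regulators, Irgm2 (ENSMUSG00000069874, chromosome 11, 58090444 to 58113608) separated the groups fully. The Tn tumours held 241, 272, 177, 213, 191 and 168 CPM, and the WT tumours held 141, 86.8, 116, 116, 165 and 19 CPM. No WT tumour reached a Tn tumour, although the lowest Tn and the highest WT tumour were close. The log2 fold change of 0.97 ± 0.37 just missed the threshold (edgeR adjusted p = 0.0548), and Irgm2 passed without WT tumour 6, at 0.75 ± 0.17 (edgeR adjusted p = 0.00619), without WT tumour 5, at 1.14 (edgeR adjusted p = 0.0393), and with DESeq2 on all tumours, at 0.96 (adjusted p = 0.0185). Leaving out WT tumour 6 made the difference smaller and its error smaller still.

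Igtp (ENSMUSG00000078853, chromosome 11, 58090382 to 58098417), the neighbour of Irgm2, overlapped in a single WT tumour. The Tn tumours held 373, 421, 229, 321, 256 and 264 CPM, and the WT tumours held 167, 91.1, 151, 146, 266 and 15.8 CPM. WT tumour 5 was inside the Tn range, and the other 5 WT tumours were below it. The log2 fold change was 1.16 ± 0.45 (edgeR adjusted p = 0.0637), and Igtp passed without WT tumour 6, at 0.92 ± 0.25 (edgeR adjusted p = 0.0142), without WT tumour 5, at 1.45 (edgeR adjusted p = 0.0297), and with DESeq2, at 1.15 (adjusted p = 0.0195). Igtp and Irgm2 share 162 exonic bases in the deposited annotation, 8% of Igtp and 4.4% of Irgm2, so a small part of their reads cannot be assigned to either.

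Irgm1 (ENSMUSG00000046879), a regulator that also takes part in autophagy, had the smallest of the 3 differences. It held 238, 275 and 404 CPM as lowest, median and highest in Tn tumours, and 58.5, 198 and 277 CPM in WT tumours. Tn tumour 2 was high within its group, and WT tumour 5 was again inside the Tn range. Irgm1 differed by 0.64 ± 0.28 on the log2 scale (edgeR adjusted p = 0.0922), and without WT tumour 6 it was 0.46 ± 0.16, which passed (edgeR adjusted p = 0.0465).

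Tgtp1, the effector (ENSMUSG00000078922, chromosome 11, 48876154 to 48884999), was the 1 member with a negative fold change. The Tn tumours held 43, 43.3, 27.7, 45, 39.1 and 30.7 CPM, and the WT tumours held 55.8, 34.8, 50.7, 48.1, 74.3 and 4.27 CPM. WT tumours 1, 3, 4 and 5 lay above every Tn tumour, WT tumour 2 inside the Tn range and WT tumour 6 below it. On the log2 scale the difference was -0.23 ± 0.44 (edgeR adjusted p = 0.714), and without WT tumour 6 it was -0.47 ± 0.18 (edgeR adjusted p = 0.0695). With the tumour number as a block it was 0.05, so its direction depends on the fit.

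**Figure D3:**
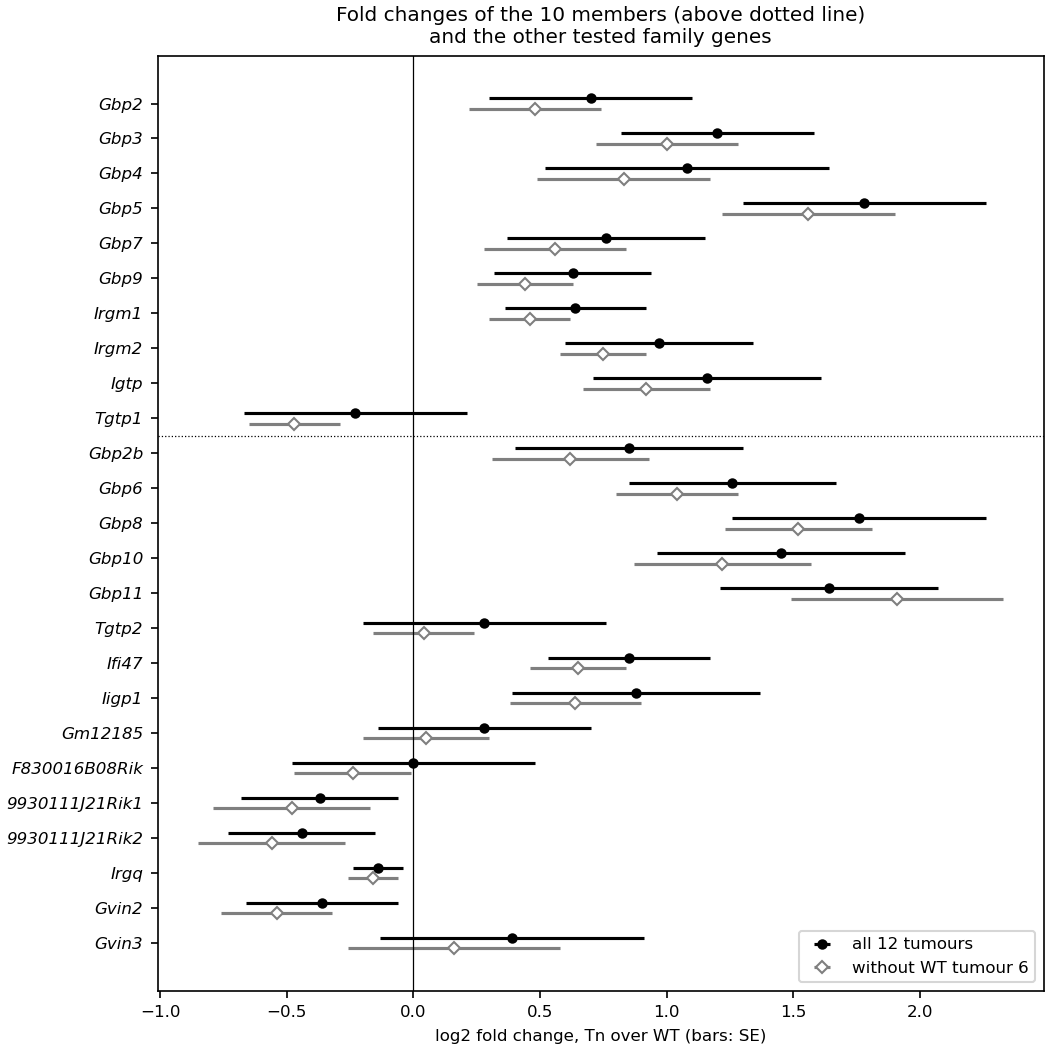
Log2 fold changes, Tn over WT, with bars of 1 SE, of the 10 members above the dotted line and of 15 other family genes below it. Filled circles are fits with all 12 tumours and open diamonds fits without WT tumour 6; the errors of the members are smaller without that tumour, and Tgtp1 is the member left of 0.

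Per length of exon, Gbp2 was the most abundant member in both groups, at 199 ± 77.9 CPM per kb in Tn tumours and 123 ± 59.8 CPM per kb in WT tumours (SD, n = 6 each). Igtp followed, with a level of 154 ± 37 CPM per kb in Tn tumours and 69 ± 41.2 CPM per kb in WT tumours, and the spreads of Gbp2 and Igtp overlapped. Irgm2, Gbp3, Irgm1 and Gbp4 had levels of 57, 56, 49.8 and 49.2 CPM per kb in Tn tumours and 29.1, 24.4, 31.9 and 23.3 CPM per kb in WT tumours. These 4 were within each other's spread in both groups. Gbp7 and Gbp9 had levels of 32.3 and 20.9 CPM per kb in Tn tumours and 19.1 and 13.5 CPM per kb in WT tumours. In Tn tumours Tgtp1 and Gbp5 were lowest, with levels of 11.9 ± 2.27 and 10.9 ± 5.46 CPM per kb, within each other's spread. In WT tumours they had levels of 13.9 ± 7.36 and 3.17 ± 1.73 CPM per kb, so Gbp5 was lowest there and Tgtp1 was within the spread of Gbp9. The lengths are merged exons of the annotation, so a gene with a long alternative exon is understated. Most of the Tgtp1 transcript also occurs in another gene, as given below, so its level per kb and its rank are uncertain.

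WT tumour 6 held the lowest level of the 12 tumours in 10 of 10 members, against 11.2% of all genes tested, while it was the lowest of the WT tumours in 20.2%. Its levels were 6.52% (Gbp4) to 28.5% (Gbp9) of the median of the other 5 WT tumours, with a median of 16.1% over the members against 101% over all genes. In 1.16% of all genes it held less than 25% of that median. Among the Irg genes Irgm1 was at 28.2%, Irgm2 at 16.3%, Igtp at 10.5% and Tgtp1 at 8.43%. Among the 6 Tn tumours the highest was 1.62-fold (Irgm2) to 3.27-fold (Gbp5) above the lowest. Among WT tumours 1 to 5 it was 1.63-fold (Gbp9) to 2.93-fold (Igtp), and with WT tumour 6 included 4.73-fold (Irgm1) to 27.5-fold (Gbp4).

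**Figure D4:**
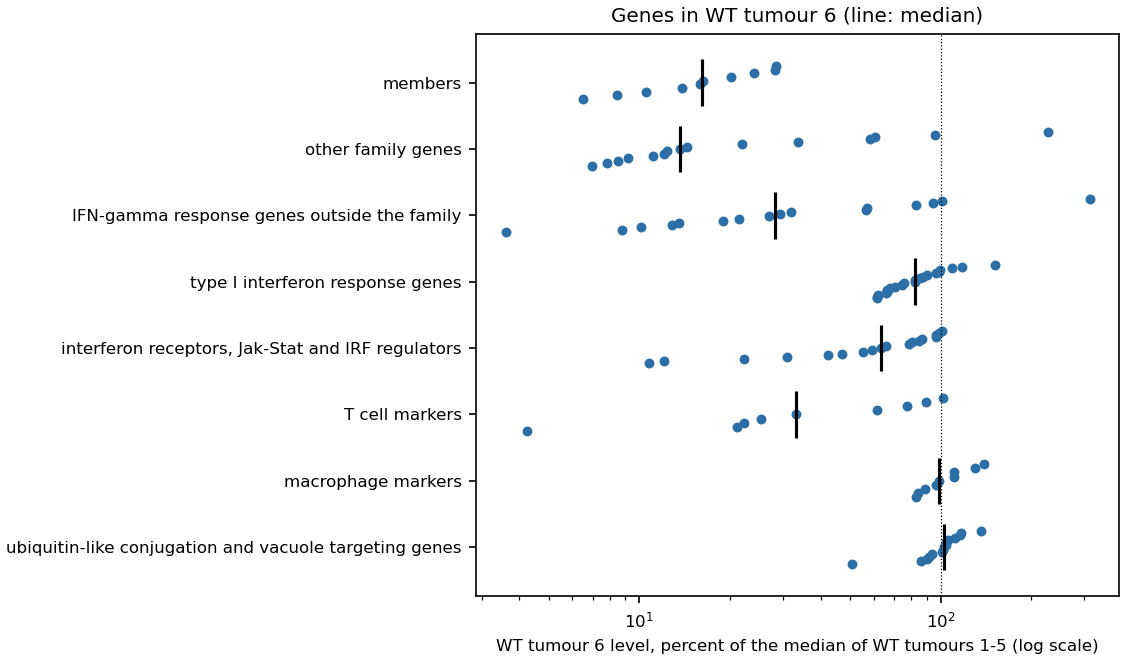
Level of each gene in WT tumour 6 as a percentage of the median of the other 5 WT tumours, on a log axis, for 8 gene lists, with the median of each list as a bar and 100% as a dotted line. The members lie between 6.52% and 28.5%, while type I interferon response genes centre on 82% and macrophage markers on 98.7%; Ifng, at 0 in this tumour, is not drawn.

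The 10 genes together made up 2846, 3483, 1568, 2252, 1742 and 1692 CPM in the 6 Tn tumours, against 1654, 1043, 1339, 1174, 1980 and 237 CPM in the 6 WT tumours. Tn tumours 2, 1 and 4 were the highest and WT tumour 5 came next, above 3 Tn tumours. The mean was 2264 ± 763 CPM in Tn tumours and 1238 ± 597 CPM in WT tumours (SD, n = 6 each), or 1438 ± 380 CPM in the 5 WT tumours without number 6.

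The balance among the members was measured as each gene's share of that sum, which can still move with the overall level of a tumour. In WT tumour 6, with the lowest sum, Gbp4 made up 4.78%, against 12.2 to 16.3% in the other WT tumours. Irgm1 made up 24.7% there, against 13.1 to 16.1%. Gbp5 made up 2.35 to 3.85% in Tn tumours and 1.19 to 2.2% in WT tumours, the 1 share of 10 whose groups did not overlap. WT tumour 6, at 1.34%, was inside the WT range here, so the Gbp5 share did not set it apart. Tgtp1 made up 1.24 to 2.25% in Tn tumours and 1.81 to 4.09% in WT tumours, and the 5 WT tumours other than number 6 lay above every Tn tumour. Igtp made up 12.1 to 15.6% in Tn tumours and 6.67 to 13.5% in WT tumours. Gbp2 made up 19.4 to 23.6% in Tn tumours and 23.3 to 27.5% in WT tumours. Set against Gbp2, Gbp5 had a ratio of CPM of 0.107 to 0.165 in Tn tumours and 0.049 to 0.094 in WT tumours, with no overlap. This ratio was chosen after its values were seen, and none of the shares was tested.

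Some members share sequence with other genes, which limits how firmly their counts belong to them. Of the 100-base stretches of the canonical transcript, 84.8% in Tgtp1 and 80.4% in Tgtp2 also occur in another gene, mostly in each other. For the other members the share was 11.2% in Gbp7, 5.9% in Gbp5, 4.94% in Igtp, 3.96% in Gbp9, 3.48% in Irgm2, 2.88% in Gbp4, 0.905% in Gbp3 and 0% in Gbp2 and Irgm1. The levels of Tgtp1 and Tgtp2 are therefore uncertain, and whether their sum is firmer was not tested. Tgtp1 and Tgtp2 summed to 66.6 to 117 CPM in Tn tumours, with a median of 91.3 CPM, and to 7.46 to 146 CPM in WT tumours, with a median of 93.3 CPM. The ratio of Tgtp1 to Tgtp2 was 0.587 to 0.939 in Tn tumours and 0.862 to 1.34 in WT tumours, with overlap. All Tn tumours lay below 1, as did WT tumours 1 and 2, at 0.998 and 0.862. This ratio too was chosen after its values were seen and was not tested.

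Of the 17 other genes of the family, 15 had enough counts for the test, without Irgc and Gvin1. Among them 4 rose and 0 fell, while 19.5% of all genes tested rose and 17.4% fell. The median log2 fold change of the 15 was 0.39. The 4 were all Gbp genes of the chromosome 5 cluster. Gbp8 held 13.9, 17.9 and 34.4 CPM as lowest, median and highest in Tn tumours, against 0.622, 6.24 and 10.4 CPM in WT tumours. All 6 Tn tumours were above all 6 WT tumours, and the log2 fold change was 1.76 ± 0.50 (edgeR adjusted p = 0.0154). Gbp11 rose by 1.64 ± 0.43 (edgeR adjusted p = 0.0103), Gbp10 by 1.45 ± 0.49 (edgeR adjusted p = 0.0357) and Gbp6 by 1.26 ± 0.41 (edgeR adjusted p = 0.0306). Without WT tumour 6 these 4 also rose, Gbp8 by 1.52, Gbp11 by 1.91, Gbp10 by 1.22 and Gbp6 by 1.04 (edgeR adjusted p = 0.00278, 0.00573, 0.0187 and 0.00681). Gbp6 and Gbp10 share 82.2% and 76.1% of their 100-base stretches with other genes, chiefly Gm43302, and are uncertain for that reason. Gbp2b, also called Gbp1, did not pass, with a log2 fold change of 0.85 (edgeR adjusted p = 0.159). Among Irg genes, Iigp1 was at 0.88 (edgeR adjusted p = 0.175) and Ifi47 at 0.85 (edgeR adjusted p = 0.0564), and Ifi47 rose without WT tumour 6, at 0.65 (edgeR adjusted p = 0.0202).

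Of the remaining Irg and very large GTPase genes among the 17, none passed. Tgtp2 and Gm12185 had log2 fold changes of 0.28 each, Irgq of -0.14, 9930111J21Rik1 of -0.37, 9930111J21Rik2 of -0.44, Gvin2 of -0.36 and Gvin3 of 0.39. Of their 100-base stretches, Gvin1 and Gvin2 share 97.7% each with other genes, and 9930111J21Rik1 and 9930111J21Rik2 share 64.6% and 40.3%. Their levels are uncertain for that reason. F830016B08Rik was at -0.00, and its sign changed with the fit. Iigp1c, a gene outside the 17 that is named for its likeness to the members, rose by 1.27 ± 0.42 (edgeR adjusted p = 0.0321), or by 1.05 without WT tumour 6 (edgeR adjusted p = 0.00701), with all 6 Tn tumours above all 6 WT tumours. As in the members, WT tumour 6 was the lowest of 12 in 11 of the 15 tested genes, against 11.2% of all genes tested. Over these 15 it was at a median of 13.7% of the other WT tumours. Gbp11 differed from this: its level of 3.34 CPM in WT tumour 6 was 227% of the median of the other WT tumours and the highest WT level.

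Most genes of a list of interferon signalling and its regulators rose. The list holds interferon gamma, receptor chains, Jak-Stat genes and interferon regulatory factors, and also Socs1, Socs3, Batf2, Nlrc5 and Ciita, which interferon itself induces. Of these 19 genes 15 rose, Socs1, Socs3, Batf2 and Ciita among them, and 1 fell, with a median log2 fold change of 0.71, and without WT tumour 6 14 rose and 1 fell. The gene that fell, named after its value was seen, was the receptor kinase Jak2, at -0.49 ± 0.18 (edgeR adjusted p = 0.0483). Jak2 did not pass in 10 of the 12 fits with 1 tumour left out, nor with voom, with no filter or with the tumour number as a block. Irf2, a factor that binds the ISRE, averaged 89.8 ± 9.96 CPM in Tn tumours and 54.9 ± 5.05 CPM in WT tumours (SD, n = 6 each), or 0.71 ± 0.09 as log2 fold change (edgeR adjusted p = 0.00011). The receptor chains Ifngr2 and Ifngr1 rose by 0.49 ± 0.07 (edgeR adjusted p = 0.00032) and 0.42 ± 0.08 (edgeR adjusted p = 0.00154). Irf9, the DNA-binding part of the type I interferon complex, rose by 0.74 ± 0.14 (edgeR adjusted p = 0.0017). In these 4 genes WT tumour 6 held 86.5%, 99.1%, 101% and 65.7% of the median of the other WT tumours.

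Interferon gamma itself, Ifng, is described beside them, chosen after its values were seen. The Tn tumours held 528, 545, 109, 196, 140 and 178 counts, and the WT tumours held 56, 20, 47, 49, 95 and 0 counts. In CPM the range was 0.894 to 4.18 in Tn tumours and 0 to 0.825 in WT tumours, with no overlap, and the log2 fold change was 2.54 ± 0.76 (edgeR adjusted p = 0.0202), or 2.28 ± 0.52 without WT tumour 6 (edgeR adjusted p = 0.00668). Tn tumours 1 and 2 were the highest, as they were of the Tn tumours in 9 of the 10 members. WT tumour 5 was the highest WT tumour, as it was in 8 members. WT tumour 6 had 0 counts, and a limit of 3 counts allows it a level of up to 0.0239 CPM. That limit treats each count as independent, and is higher where both reads of a pair were counted. Irf1, a transcription factor induced by interferon gamma, held 221 to 405 CPM in Tn tumours and 94 to 233 CPM in WT tumours, and rose by 0.67 ± 0.21 (edgeR adjusted p = 0.0248), or by 0.54 ± 0.16 without WT tumour 6 (edgeR adjusted p = 0.0255).

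**Figure D5:**
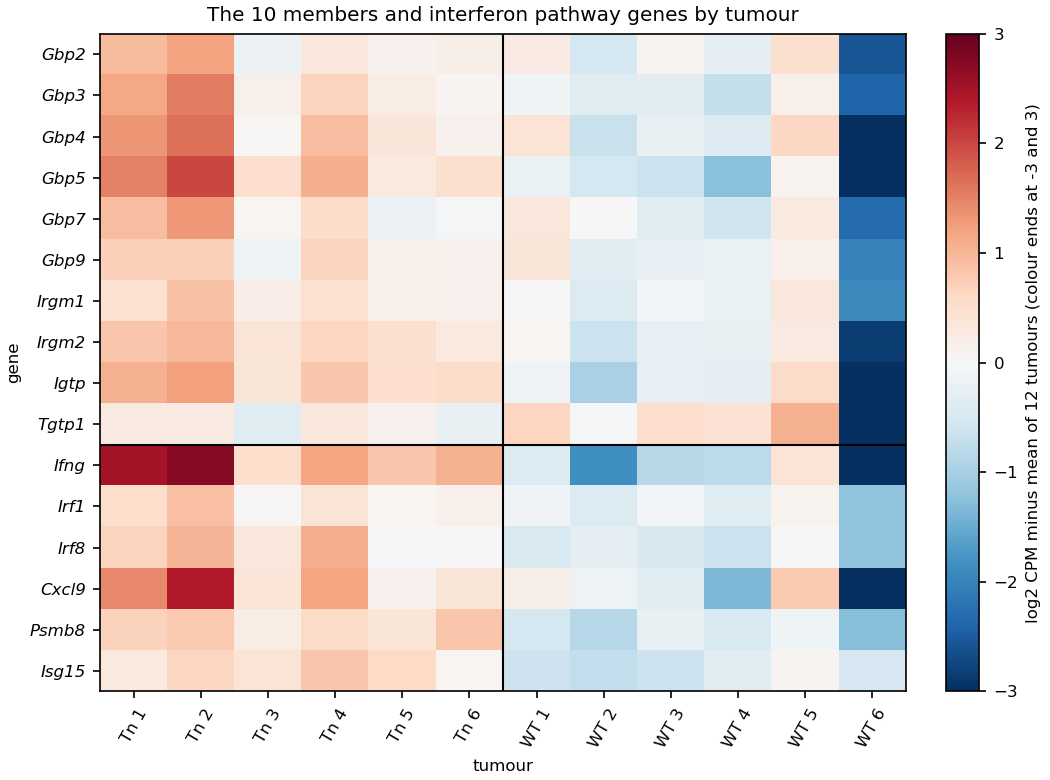
Log2 CPM of the 10 members and of 6 interferon pathway genes in each tumour, minus the mean of the gene over the 12 tumours, with Tn tumours left of the line and WT tumours right of it; the colour scale ends at -3 and 3. Tn tumours 1 and 2 are the highest in most rows and WT tumour 6 the lowest in the member rows, while Isg15 differs little between WT tumour 6 and the other WT tumours.

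Targets of interferon gamma outside the family were measured next. Of 16, 11 rose and 0 fell, with a median log2 fold change of 1.26, and without WT tumour 6 12 rose and 0 fell. The peptide transporter Tap1 held 355 ± 52.2 CPM in Tn tumours and 141 ± 59.1 CPM in WT tumours (SD, n = 6 each), and rose by 1.34 ± 0.29 (edgeR adjusted p = 0.00382). In Tap1 WT tumour 6 was at 26.9% of the median of the other WT tumours, and over the list at a median of 28.1%. The other genes named for this list, the transporter Tap2 and the immunoproteasome subunits Psmb8 and Psmb10, were at 82.9%, 56.7% and 56.8% there. The chemokine Cxcl9, chosen after its values were seen, held 93.3, 152 and 441 CPM as lowest, median and highest in Tn tumours, against 2.73, 71.1 and 146 CPM in WT tumours, and did not pass, at 1.49 ± 0.67 (edgeR adjusted p = 0.0993), nor without WT tumour 6, at 1.23 ± 0.45 (edgeR adjusted p = 0.0552).

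Genes better known as targets of type I interferon were counted separately. Of 21 genes, 16 rose and 0 fell, with a median log2 fold change of 0.77, and without WT tumour 6 15 rose. WT tumour 6 was at a median of 82% of the other WT tumours in this list. Isg15, a ubiquitin-like modifier, averaged 45.6 ± 8.52 CPM in Tn tumours and 24 ± 5.42 CPM in WT tumours (SD, n = 6 each), or 0.93 ± 0.16 as log2 fold change (edgeR adjusted p = 0.000847), and WT tumour 6 held 109% of the median of the other WT tumours. Bst2, Ifi44 and Ddx60 were at 68.1%, 66.2% and 82% of that median.

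The inflammasome genes on which Gbp proteins act rose in Tn tumours, 10 of 12 with 0 lower and a median log2 fold change of 0.84, and 8 without WT tumour 6. The DNA sensor Aim2 held 11 ± 2.61 CPM in Tn tumours and 4.86 ± 0.937 CPM in WT tumours (SD, n = 6 each), or 1.18 ± 0.18 as log2 fold change (edgeR adjusted p = 0.000522). The adaptor Pycard rose by 1.51 ± 0.26 (edgeR adjusted p = 0.000897), the cytokine Il18 by 1.10 ± 0.16 (edgeR adjusted p = 0.000416) and Ninj1, which ruptures the membrane of dying cells, by 0.81 ± 0.12 (edgeR adjusted p = 0.000398).

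The ubiquitin-like conjugation machinery that directs Irg and Gbp proteins to vacuoles also held genes that rose. Of 15 genes, 8 rose and 0 fell, with a median log2 fold change of 0.21, and the counts were the same without WT tumour 6. With upper-quartile scaling 5 rose and 2 fell, namely Atg5 (-0.19) and Traf6 (-0.21), and with a filter at a mean of 1 CPM 6 rose and the same 2 fell, at -0.18 and -0.19. These 2 genes were chosen after their values were seen. Atg7, the activating enzyme, averaged 46.1 ± 2.24 CPM in Tn tumours and 34 ± 2.07 CPM in WT tumours (SD, n = 6 each), and rose by 0.44 ± 0.06 (edgeR adjusted p = 0.000184). The modifiers Gabarapl1, Gabarap and Map1lc3a rose by 0.52, 0.34 and 0.75. WT tumour 6 was at a median of 103% of the other WT tumours in this list.

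Markers of several other cell types differed between the groups, some higher and some lower in Tn tumours, and their part in the results above was not tested. Single markers named were chosen after their values were seen. All 9 T cell markers rose, with sums of 51.1 to 499 CPM in Tn tumours and 9.26 to 25.8 CPM in WT tumours, no overlap, and WT tumour 6 lowest. Of 8 natural killer cell markers 7 rose, with sums of 19.4 to 49.9 CPM in Tn tumours and 7.38 to 14.1 CPM in WT tumours, where WT tumour 6 had 9.68 CPM. None of these markers was at 0 in WT tumour 6. T cell markers in it were at a median of 33% of the other WT tumours, and natural killer cell markers at 71.1%. Of 9 macrophage markers 5 rose (C1qa, C1qb, C1qc, Adgre1 and Mrc1), with sums of 1214 to 3628 CPM in Tn tumours and 810 to 1254 CPM in WT tumours, and WT tumour 6, at 914 CPM, was inside the WT range. The sum of the members was highest in Tn tumour 2, as were the natural killer and dendritic cell sums, while the T cell sum was highest in Tn tumour 4 and the macrophage sum in Tn tumour 1.

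Of the dendritic cell markers 4 of 8 rose (Xcr1, Clec9a, Itgax and Batf3), with sums of 69.7 to 147 CPM in Tn tumours and 57.7 to 81 CPM in WT tumours, and 3 rose without WT tumour 6. B and plasma cell markers rose in 5 of 5 tested (Cd79a, Cd79b, Pax5, Ighm and Jchain), with sums of 6.09 to 1796 CPM in Tn tumours and 4.12 to 14.4 CPM in WT tumours, where Tn tumour 4 set the top. Without that tumour 3 rose, with voom or the tumour number as a block 0 rose, and DESeq2 gave these 5 no adjusted p. Of 8 neutrophil markers 0 rose and 0 fell, with sums of 31.6 to 190 CPM in Tn tumours and 31.9 to 120 CPM in WT tumours, where WT tumour 6 was lowest and at a median of 32.2% of the others. Without Tn tumour 4, which had the highest sum, 4 fell (S100a8, Ly6g, Retnlg and Camp), and without Tn tumours 4 and 6 and WT tumour 6 the count was 6 (also S100a9 and Cxcr2). Endothelial markers fell in 5 of 7 (Cdh5, Kdr, Tek, Emcn and Erg), with sums of 192 to 373 CPM in Tn tumours and 281 to 490 CPM in WT tumours, and fibroblast markers fell in 7 of 8 and rose in 1, Pdgfra, with sums of 2363 to 3570 CPM in Tn tumours and 5499 to 13874 CPM in WT tumours. The groups overlapped in the dendritic, B cell, neutrophil and endothelial sums and did not in the fibroblast sums. The labelled tissue was matched by mammary epithelial markers, namely keratins, claudins, Epcam, Cdh1 and Esrp1. Their sums were 1810 to 3286 CPM in Tn tumours and 1921 to 4013 CPM in WT tumours, with 2 of 8 lower, Krt19 and Cldn3. Without WT tumour 6 Cldn3 was lower and Cldn7 higher, at -1.99 and 1.98, and Krt19 did not pass. Skeletal muscle markers, with 0 of 6 called, summed to 2.44 to 117 CPM in Tn tumours and 3.22 to 54.3 CPM in WT tumours. Epithelial and muscle sums thus overlapped between the groups. Adipocyte markers fell in 1 of 6, Lep, with sums of 34.6 to 480 CPM in Tn tumours and 22.9 to 2194 CPM in WT tumours. Of the keratinocyte markers 4 were tested and 0 called, with sums of 18.4 to 2984 CPM in Tn tumours, where number 6 was highest, and 52.8 to 828 CPM in WT tumours.

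The genes whose pattern over the tumours was most like that of the members were ranked by the Pearson correlation of log2 CPM with the mean of the members, each centred within its group, among 13992 genes whose mean was 1 CPM or more. The 5 highest were Iigp1 (r = 0.991), Iigp1c (0.990), the transcription factor Batf2 (0.989), Gbp8 (0.988) and Or2v1 (0.986), over 12 tumours that share library and depth. Without WT tumour 6, over 11 tumours, the same genes had r of 0.963, 0.949, 0.949, 0.936 and 0.934. Or2v1 is an olfactory receptor gene whose exons overlap those of Ifi47 in part in the deposited annotation. Whether some of its reads belong to Ifi47 was not tested. The members themselves had r of 0.955 (Gbp7) to 0.999 (Gbp4), of which their own part in the mean is a component, and Ifng had 0.980, or 0.930 without WT tumour 6. Within the groups the member furthest from the common pattern once WT tumour 6 was left out was Tgtp1, at 0.824. Batf2 held 23.1, 31.3 and 58.9 CPM as lowest, median and highest in Tn tumours, against 1.08, 9.55 and 18.5 CPM in WT tumours, with no overlap.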

How the data were processed

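Per the labels' protocols, RNA of tumours with an RNA integrity number above 7 was made into stranded libraries of polyadenylated RNA and sequenced as read pairs. Per the submitters' processing notes, FastQC, fastp 0.23, STAR 2.7.11a and featureCounts of Subread 2.1.1 were used with GRCm39. The deposited values are raw counts per gene over exons of the Ensembl 112 annotation, per the file headers, without a strand setting or the option to count each pair once. No option for multiply mapped reads, or for reads over more than 1 gene, was set. Counts of 1 to 20 were even in 66.4% to 72.5% of cases. Overlapping, antisense and near-identical genes are therefore uncertain. The deposited gene lengths, in bases, were used for CPM per kb.

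Of 57186 identifiers, 56630 were paired with a symbol of a later GRCm39 annotation (GENCODE M39). The counts were tested as deposited with edgeR 4.0.16 in R 4.3.3 (TMM scaling, filterByExpr, robust quasi-likelihood fit, 6 Tn against 6 WT tumours, two-sided, adjusted over 19255 genes by Benjamini-Hochberg, threshold 0.05). The SE is the log2 fold change over the root of F. The biological coefficient of variation was 0.358, and no 2 libraries of a group agreed within sampling noise (the smallest chi-square was 41.4 per degree of freedom). In counts simulated for this comparison with 19132 genes, the test recovered 44% of 50 genes changed 1.5-fold, 76% of 100 at 2-fold and 96% of 50 at 4-fold, with 3 false calls. The changed genes were drawn from all genes at 1 CPM or more, with no outlying tumour. These rates therefore do not describe the members, in which WT tumour 6 was far below the rest.

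The members and the gene lists were chosen with earlier results of these data known. Genes named are the members, the rest of the family, up to 4 genes of smallest p from each pathway list, the 5 most alike and C1galt1c1, and any other gene is marked in the text as chosen with its values in view. The results were recomputed with DESeq2 1.42.0, with voom and quality weights of limma 3.58.1, with RLE or upper-quartile scaling, with no filter or one at a mean of 1 CPM, at stricter thresholds, with the tumour number as a block, and with tumours left out. Library numbers are lower for every Tn than for every WT tumour, and an effect of that order and the group cannot be told apart. Protein sequences were not used here, and 1 promoter stretch and 1 gene of the signalling list are not reported here.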

Additional observations from a re-analysis of the deposited data

Results flagged for a closer look

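In a group of 6 tumours, a highest or lowest CPM value was singled out when its gap to the nearest other value, as a share of the whole range of the group, exceeded the 95% critical value of Dixon's test. Of 50 groups (25 family genes in Tn and in WT tumours) 4 met this, all with a high Tn tumour, and chance alone singles out about 1 in 20 groups. Irgm1 in Tn tumour 2 was at 404 CPM, and the next Tn tumours were at 300 CPM. F830016B08Rik in Tn tumour 2 was at 6.35 CPM, with the next at 4.62 CPM. In Tn tumour 4, 9930111J21Rik1 was at 6.92 CPM, with the next at 3.52 CPM, and Gvin3 at 1.15 CPM, with the next at 0.476 CPM. Gvin3 had a log2 fold change of 0.39 with all tumours and of -0.07 without that tumour. WT tumour 6 was not singled out on the CPM scale in any of the 25 genes. On the log2 CPM scale, a setting chosen after seeing the data, it was singled out as the low WT tumour in 8 of the 10 members and in 11 of the 15 other genes.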

How the results depend on the processing

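Of the 10 members, 2 rose with all tumours, and the count was 4 with DESeq2, 1 with no filter, 4 without Tn tumours 4 and 6 and WT tumour 6, and 0 at an adjusted p under 0.01. With each tumour left out in turn it ran from 1 to 5: 5 without WT tumour 6, 4 without WT tumour 5, and 1 without Tn tumour 1, Tn tumour 2 or WT tumour 4. Gbp5 passed in all 20 alternative fits (adjusted p 0.000276 to 0.0391) and Gbp3 in 16 (up to 0.0709). No member fell in any fit. The count of other family genes that rose, 4, was 2 with no filter, 0 under 0.01, and 2 to 5 with each tumour left out, with 2 without Tn tumour 1 or 2 or WT tumour 2, 3 or 4. Over all genes 3752 rose and 3342 fell, against 2109 and 1916 under 0.01, 1079 and 1373 at 2-fold or more, and 3094 and 3844 with upper-quartile scaling. The tumour numbers do not pair the samples, since deviations of same-numbered tumours had correlations of -0.125 to 0.158 and number 2 alone had its own number as best partner. With the number as a replicate block 3 members rose, Tgtp1 turned to 0.05 and F830016B08Rik to 0.31. F830016B08Rik also turned to 0.32 with voom and 0.01 with no filter, and ran from -0.24 to 0.28 with each tumour left out. Gvin3 turned to -0.07 without Tn tumour 4, at the low end of a range up to 0.65 with each tumour left out, and to -0.24 without the 3 tumours. The cause of these changes was not tested. At these depths the spread between tumours, more than counting error, limits the members' values.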

Other observations

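Several Gbp proteins need a prenyl anchor to reach membranes, and the 6 genes of the enzymes that attach and process it were counted. Of these 2 rose, 1 fell, and the median log2 fold change was 0.03. The shared transferase subunit Fnta averaged 88.4 ± 7.69 CPM in Tn tumours and 70.8 ± 6.92 CPM in WT tumours (SD, n = 6 each), and rose by 0.32 ± 0.08 (edgeR adjusted p = 0.00755). The protease Rce1 averaged 26 ± 3.32 CPM in Tn tumours and 19 ± 0.847 CPM in WT tumours, and rose by 0.45 ± 0.08 (edgeR adjusted p = 0.00151). The methyltransferase Icmt averaged 56.6 ± 7 CPM in Tn tumours and 76.6 ± 4.3 CPM in WT tumours, with a log2 fold change of -0.44 ± 0.08 (edgeR adjusted p = 0.00129). Pggt1b, the subunit that adds the geranylgeranyl group, was at -0.11 (edgeR adjusted p = 0.237). WT tumour 6 was at a median of 104% of the other WT tumours in this list, and without it the counts were the same.

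In WT tumour 6, where the members were lowest, Ido1, an enzyme of tryptophan breakdown and a target of interferon gamma, was at 13.9 CPM, which is 312% of the median of the other WT tumours. Ido1 held 4.05 to 23.4 CPM in Tn tumours and 2.91 to 13.9 CPM in WT tumours. Its log2 fold change of 1.25 ± 0.48 did not pass (edgeR adjusted p = 0.0603), and without WT tumour 6 Ido1 rose by 1.73 ± 0.42 (edgeR adjusted p = 0.00885). In the same tumour Cxcl9 was at 2.73 CPM, or 3.6% of that median. Ido1 and Cxcl9 were chosen after their values were seen.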
